A study of Sus scrofa domesticus with 4 samples.

Results

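Interferon-stimulated genes are switched on by interferons, and 8 of them were examined: the antiviral GTPases MX1 and MX2, the ubiquitin-like protein ISG15 and its protease USP18, the antiviral oligoadenylate synthetase OAS1, the guanylate-binding proteins GBP1 and GBP2, and the transcription factor IRF1. The members were chosen by name, and a probe was assigned to a member when its RefSeq accession, without the version, matched that gene in the NCBI table of pig genes. By this rule 16 of the 43603 probes on the array belonged to 7 of the 8 members, and OAS1, for which no accession matched, was not analysed here. Of the 16 probes, 10 probes of 6 members could be tested, meaning that the gilts of the same group, pregnant or cyclic or both, exceeded background clearly on each of the 4 arrays and that at least 3 arrays carried no outlier flag for the spot.

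The tissue was anterior pituitary, taken from mature gilts, which are female pigs before their first litter, of about 110 kg and of the cross Large White x Polish Landrace. The 4 pregnant gilts had been mated naturally and were killed on days 12 to 13 of pregnancy, with conceptuses found. The 4 cyclic gilts were killed on days 12 to 13 of their cycle, judged from the ovaries. Each of 4 two-colour arrays compared 1 pregnant with 1 cyclic gilt, with pregnant RNA in the dye Cy3 on arrays 1 and 3 and, going by each sample's own labels, in Cy5 on arrays 2 and 4.

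Interferons bind receptors at the cell surface, Janus kinases attached to these receptors phosphorylate STAT proteins, and complexes of STAT proteins with IRF9 enter the nucleus and switch on genes such as MX1 and ISG15. Type II interferon uses a receptor of its own, and IRF1 and the guanylate-binding proteins are typical genes of that branch. Pig conceptuses secrete interferon gamma and interferon delta around the time of implantation, and interferon-stimulated genes are used in ruminants as a sign that conceptus interferon has reached tissues outside the uterus. The comparison asked whether the anterior pituitary of pregnant gilts carried other levels of these transcripts than that of cyclic gilts in the period of maternal recognition of pregnancy.

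No tested probe of a member passed the test between pregnant and cyclic gilts. Of the 10 tested probes, which leave out ISG15, 0 passed an adjusted p of 0.05 (limma, Benjamini-Hochberg adjustment over 21627 probes), where the share over all tested probes was also 0%. Their limma adjusted p lay between 0.256 and 0.991, and the smallest over all probes was 0.0761. At an unadjusted p under 0.05 limma listed 1 of the 10 probes, a GBP2 probe, while 18.1% of all tested probes were listed (10.4% higher and 7.62% lower in pregnant gilts). Each fitted log2 ratio is the model's estimate of pregnant over cyclic, and the SD printed beside it is that of the single arrays. The fitted ratios lay between -0.22 and 0.30, with 5 positive and 5 negative. Taking the brightest tested probe of each gene, 4 members had a positive and 2 a negative ratio, with a median of 0.089, against -0.024 over the 1744 named genes tested. Over the 10 tested member probes the median was -0.0066, against 0.013 over all tested probes, so the sign of the members' median depended on whether genes or probes were counted. No member probe on 4 arrays had levels that kept the groups apart (0 of 8), where over all such probes 2.27% had every pregnant gilt above every cyclic gilt and 1.03% had every pregnant gilt below. The 95% intervals of the 10 probes lay within -0.80 and 0.56, so each left out a doubling, a log2 ratio of 1, in the fit reported here. Under other processing the interval included 1 for 2 of the probes. For GBP1 A_72_P648637 it was -1.12 to 1.39 without a dye effect and 0.44 to 1.56 with pregnant RNA read as Cy3 throughout, and for MX2 it was -0.016 to 1.2 with the processed signals of the scan software. These intervals rest on how far arrays of 1 dye orientation differ from each other, and the fit takes a difference between the 2 orientations out of that spread as a dye effect. The gilts of arrays 1 and 3 are not those of arrays 2 and 4, so for any probe a dye effect and a difference between gilts cannot be told apart. The tissue was measured in bulk, in which fewer cells of a type and less RNA per cell cannot be told apart.

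**Figure D1:**
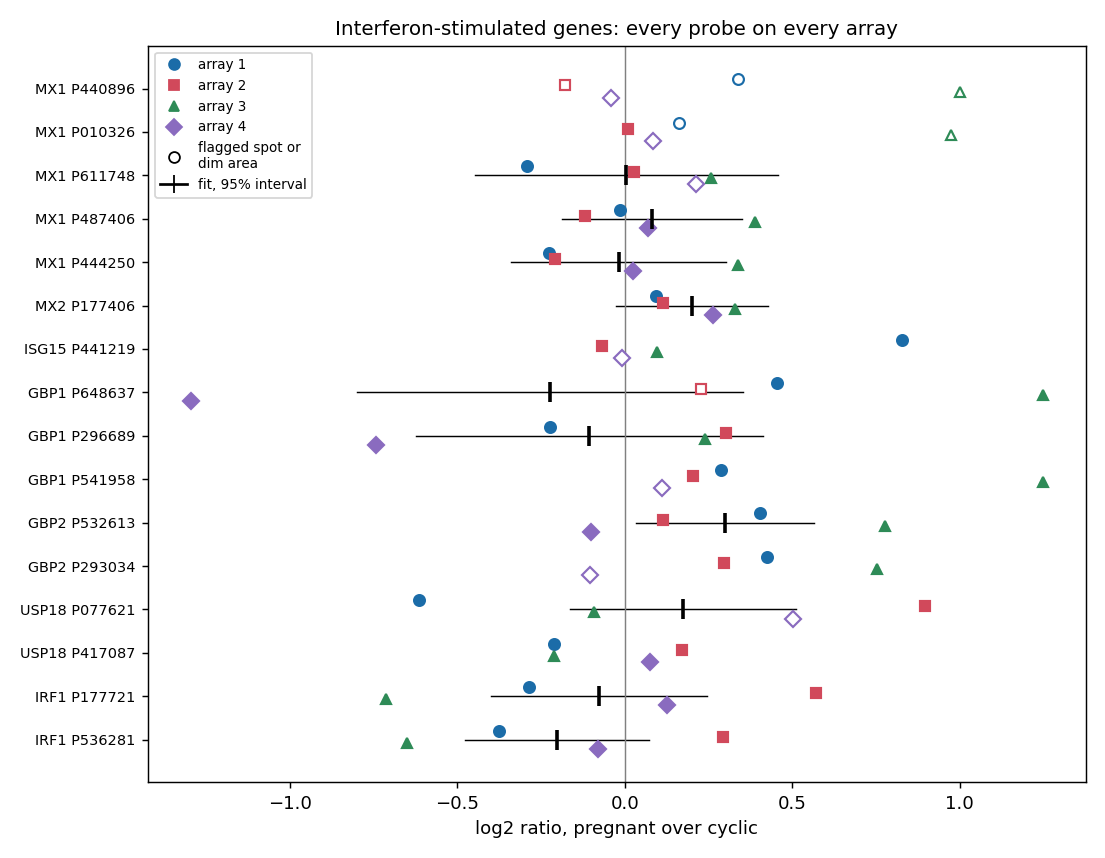
Log2 ratio of pregnant over cyclic (horizontal axis) for the 16 probes (rows, named by gene and the end of the probe name), with 1 symbol per array, open where the spot was flagged as an outlier or lies in the dim area of array 4; black bars are the fitted ratio and its 95% interval for the 10 tested probes. The fitted ratios lie between -0.22 and 0.30, while single arrays reach -1.30 and 1.25, both for GBP1.

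As a check of the tissue, the 9 anterior pituitary markers looked at (hormone genes, POU1F1 and GNRHR) each had a tested probe. These markers varied between arrays and groups: PRL had a fitted ratio of -0.89 ± 0.83 (SD, n = 4), FSHB -1.91 ± 1.52 (SD, n = 3) and POU1F1 0.46 ± 0.23 (SD, n = 4), none with a limma adjusted p under 0.05, and TSHB ran from -4.85 to 6.30 between arrays. OXT, a hormone gene of the posterior lobe system, was above background in 4 pregnant and 4 cyclic gilts, with a mean level of 12.67 in pregnant and 12.69 in cyclic gilts. AVP, a hormone gene from the same list, was above background in only 3 pregnant and 2 cyclic gilts and was not tested. AQP4, MBP and PCSK2, the other genes of that list with a probe, were each tested. Arrays 1 to 3 lost at most 0.0097% of the spots that were bright on the other arrays, and array 4 lost 8.52%, mostly in an area of 4943 dim spots (11.3% of the array). Of the 16 member probes 4 lie in that area on array 4: the ISG15 probe, 1 probe each of GBP1 and GBP2, and the USP18 probe that was tested. No spot was saturated. The median log2 ratio of the tested member probes was -0.23, 0.12, 0.29 and 0.026 on arrays 1 to 4, and that of all tested probes lay between -0.0062 and 0.029. The SD of the ratios of all tested probes was 0.33, 0.29, 0.58 and 0.28 on arrays 1 to 4, so ratios as a whole were widest on array 3.

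MX1 (NM_214061), an interferon-induced GTPase that blocks the replication of influenza and other viruses, had 5 probes, of which 3 were tested. For the probe A_72_P487406 the level, as log2 intensity after normalisation, was 9.45, 8.86, 9.95 and 10.13 in the pregnant gilts of arrays 1 to 4, against 9.46, 8.98, 9.56 and 10.06 in the cyclic gilts of the same arrays. The groups overlapped, and both gilts of array 2 were lowest and both gilts of array 4 highest in their group. Its log2 ratio on arrays 1 to 4 was -0.013, -0.12, 0.39 and 0.068, which gave a fitted ratio of 0.081 ± 0.22 (SD, n = 4; 95% interval -0.19 to 0.35; limma adjusted p = 0.71). The dimmer probe A_72_P444250 had -0.23, -0.21, 0.34 and 0.026, with a fitted ratio of -0.018 ± 0.26 (SD, n = 4; limma adjusted p = 0.953). The brightest tested probe, A_72_P611748, had -0.29, 0.027 and 0.26 on arrays 1 to 3, with its array 4 spot flagged as an outlier and left out, and a fitted ratio of 0.0047 ± 0.28 (SD, n = 3; 95% interval -0.45 to 0.46; limma adjusted p = 0.991). On array 3 the pregnant gilt was above the cyclic gilt with each of the 3 probes.

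The other MX1 probes were the brightest of the 5 and were not tested, because the scan software had flagged their spots as non-uniform, on 4 arrays for A_72_P440896 and on 3 for A_72_P010326. Among probes with a mean log2 intensity of at least 12, 29.6% of spots carried an outlier flag, against 4.67% over all probes. With flagged spots included, A_72_P440896 had log2 ratios of 0.34, -0.18, 1.00 and -0.042, from levels of 14.19, 13.29, 14.24 and 14.19 in pregnant gilts, against 13.86, 13.47, 13.24 and 14.24 in cyclic gilts. For A_72_P010326 the ratios were 0.16, 0.0097, 0.98 and 0.085. Array 3 again had the highest ratio, and it was larger there than with any of the 3 tested probes. The ratios of all tested probes were also widest on array 3 (SD 0.58). With flagged spots kept in the fit, these probes had fitted ratios of 0.28 (limma adjusted p = 0.322) and 0.31 (limma adjusted p = 0.335), so the call for MX1 did not change.

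MX2 (NM_001097416), the relative of MX1 and in humans an inhibitor of HIV-1, was measured by 1 probe near the lower end of the range. Its levels were 7.03, 7.09, 7.03 and 7.51 in pregnant gilts, against 6.94, 6.97, 6.70 and 7.24 in cyclic gilts. Within each array the pregnant gilt was higher, although the 2 groups overlapped. The log2 ratio was 0.093, 0.12, 0.33 and 0.26, with a fitted ratio of 0.20 ± 0.11 (SD, n = 4), 1.15-fold (95% interval -0.027 to 0.43 on the log2 scale; limma adjusted p = 0.309). MX2 was the 1 member probe of 8 measured on 4 arrays with a positive ratio on every array, while 14.6% of all such probes had 4 positive ratios and 11.3% had 4 negative ones. With the processed signals of the scan software the fitted ratio was 0.59, and without background correction 0.33, neither with an adjusted p under 0.05 (limma). If pregnant RNA had been in Cy3 on every array, as the labelling protocol can be read, the ratio would be 0.011. The deposited ratios take their sign from the alternating dyes of the sample labels. With the dyes as labelled, the ratios of all tested probes correlated at 0.39 between arrays 1 and 2 and 0.38 between arrays 2 and 3. Between arrays 1 and 4 the correlation was 0.075, and between arrays 3 and 4 it was 0.019. Under the other reading these 4 correlations would change sign. Which reading is right was not tested. MX1 and MX2 are related in sequence, and the files do not show whether the probes tell them apart.

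**Figure D2:**
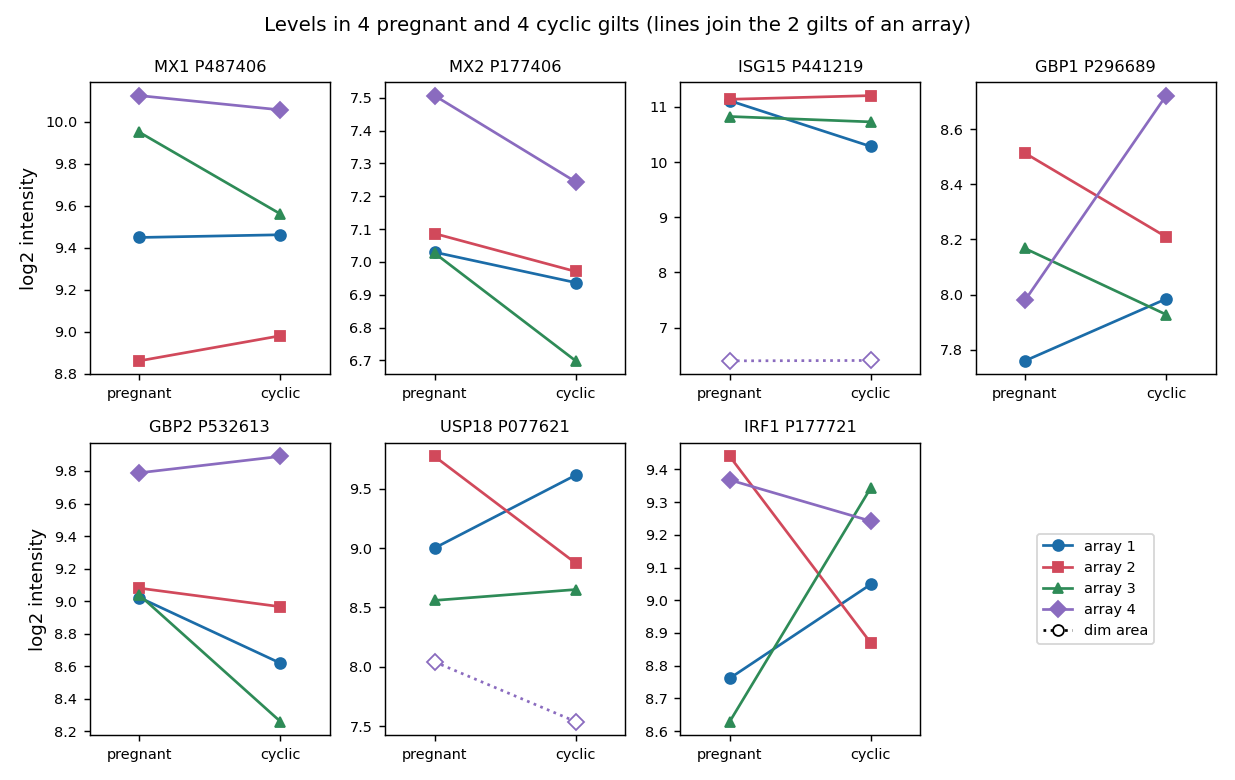
Log2 intensity (vertical axes, each panel with its own range) of 1 probe per member in the pregnant (left) and cyclic (right) gilts, with a line joining the 2 gilts of an array and open symbols where the array 4 spot lies in the dim area. The lines of MX2 all slope down to the cyclic gilt, with pregnant gilts at 7.03 to 7.51 and cyclic gilts at 6.70 to 7.24, while those of IRF1, GBP1 and USP18 cross.

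ISG15 (NM_001128469) is conjugated to other proteins after interferon, and in ruminants its rise in blood cells marks early pregnancy. Its probe had levels of 11.11, 11.14 and 10.82 in the pregnant gilts of arrays 1 to 3, against 10.28, 11.20 and 10.73 in the cyclic gilts. The cyclic gilt of array 1 was the lowest of the 6, and the other 5 lay between 10.73 and 11.20. The log2 ratio was 0.83 on array 1, -0.067 on array 2 and 0.097 on array 3. On array 4 the spot lies in the dim area and neither gilt was above background, with 6.40 in the pregnant and 6.41 in the cyclic gilt, so the probe was not tested. The mean over arrays 1 to 3 was 0.29 ± 0.48 (SD, n = 3), and 2 of the 3 arrays were positive. A fit that left out the dim area gave 0.20, with a 95% interval of -0.35 to 0.74 and a limma adjusted p of 0.638.

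USP18 (NM_213826) removes ISG15 from proteins and also damps signalling at the type I interferon receptor. Its probe A_72_P077621 had levels of 9.0, 9.77, 8.56 and 8.04 in pregnant gilts, against 9.61, 8.87, 8.65 and 7.54 in cyclic gilts. The groups overlapped, and both gilts of array 4, where the spot lies in the dim area, were the lowest. The log2 ratio on arrays 1 to 4 was -0.61, 0.90, -0.091 and 0.50, that is negative where pregnant RNA was in Cy3 and positive where it was in Cy5. The fitted ratio was 0.17 ± 0.66 (SD, n = 4; 95% interval -0.16 to 0.51; limma adjusted p = 0.507) beside a dye effect of 0.53, and it was 0.27 when the dim area was left out. Without array 1 the fitted ratio was 0.30 (limma unadjusted p = 0.0432, adjusted p = 0.141), and it was 0.075 without array 2 and 0.043 without array 3. With pregnant RNA read as Cy3 throughout it would be -0.53, and the limma adjusted p of 0.835 would not pass either. The other probe, A_72_P417087, was well above background in Cy5 on every array and in Cy3 on none, so each group was above background in 2 of its 4 gilts. It was not tested, and its ratios were -0.21, 0.17, -0.21 and 0.076, of the same signs as the first probe on each array.

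IRF1 (NM_001097413), a transcription factor induced by interferon gamma that in turn activates guanylate-binding protein and antigen presentation genes, had 2 tested probes. The brighter one, A_72_P177721, had levels of 8.76, 9.44, 8.63 and 9.37 in pregnant gilts, against 9.05, 8.87, 9.34 and 9.24 in cyclic gilts. Pregnant gilts were below their cyclic partners on arrays 1 and 3 and above them on arrays 2 and 4, with log2 ratios of -0.29, 0.57, -0.71 and 0.13. The fitted ratio was -0.076 ± 0.55 (SD, n = 4; 95% interval -0.40 to 0.25; limma adjusted p = 0.776) beside a dye effect of 0.42. The other probe, A_72_P536281, had -0.38, 0.29, -0.65 and -0.080, with a fitted ratio of -0.20 ± 0.41 (SD, n = 4; limma adjusted p = 0.366). The 2 probes thus had their highest ratio on array 2 and their lowest on array 3. Of the 8 member probes measured on 4 arrays, 2 had arrays 1 and 3 on one side of 0 and arrays 2 and 4 on the other, namely those of USP18 and the brighter IRF1 probe. Over all tested probes on 4 arrays that share was 14.1%.

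GBP2 (NM_001128474), an interferon-induced GTPase that assembles on membranes of intracellular pathogens, had the member probe with the smallest p. Probe A_72_P532613 had levels of 9.02, 9.08, 9.04 and 9.79 in pregnant gilts, against 8.62, 8.97, 8.26 and 9.89 in cyclic gilts. The groups overlapped because both gilts of array 4 were highest, and on arrays 1 to 3 the pregnant gilt was above its cyclic partner. The log2 ratio was 0.40, 0.11, 0.78 and -0.10, positive in 3 of 4 arrays, with a fitted ratio of 0.30 ± 0.38 (SD, n = 4), 1.23-fold (95% interval 0.033 to 0.56 on the log2 scale). Its limma adjusted p was 0.256, and the unadjusted p of 0.0345 rests on a fit with a dye effect of -0.29. Without a dye effect the unadjusted p in limma was 0.104 at the same ratio. The other GBP2 probe, A_72_P293034, had 0.43, 0.30 and 0.75 on arrays 1 to 3, a mean of 0.49 ± 0.24 (SD, n = 3). On array 4 it lies in the dim area and was below background in both gilts, so it was not tested. When the dim area was left out its fitted ratio was 0.44, with a 95% interval of 0.081 to 0.80 and a limma adjusted p of 0.267. The 2 GBP2 probes had the same order of the 3 arrays, with array 3 highest.

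GBP1 (NM_001128473), an interferon-induced GTPase of the same family, active against intracellular bacteria and parasites, had the widest range of ratios among the members. Its brightest probe, A_72_P648637, had levels of 9.61, 9.63 and 9.58 in the pregnant gilts of arrays 1, 3 and 4, against 9.15, 8.38 and 10.88 in the cyclic gilts. The pregnant gilts were nearly alike, and the cyclic gilts lay on either side of them. The log2 ratio was 0.45 on array 1, 1.25 on array 3 and -1.30 on array 4, and the array 2 spot, at 0.23, was flagged and left out. The plain mean was 0.14 ± 1.30 (SD, n = 3), while the fitted ratio was -0.22 (95% interval -0.80 to 0.35; limma adjusted p = 0.602), since array 4 was alone in its dye orientation and weighed most. With the flagged spot kept the fitted ratio was 0.16, so the sign of this probe was not settled. The probe A_72_P296689 had -0.22, 0.30, 0.24 and -0.74, with a fitted ratio of -0.11 ± 0.49 (SD, n = 4; limma adjusted p = 0.809). The probe A_72_P541958 had 0.29, 0.20 and 1.25 on arrays 1 to 3, a mean of 0.58 ± 0.58 (SD, n = 3), and was below background in the dim area of array 4 and not tested. On array 3 the pregnant gilt was higher with each of the 3 probes, and on array 4 the cyclic gilt was higher with both probes measured there. GBP1 and GBP2 are related in sequence, and the files do not show whether the probes tell them apart.

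**Figure D3:**
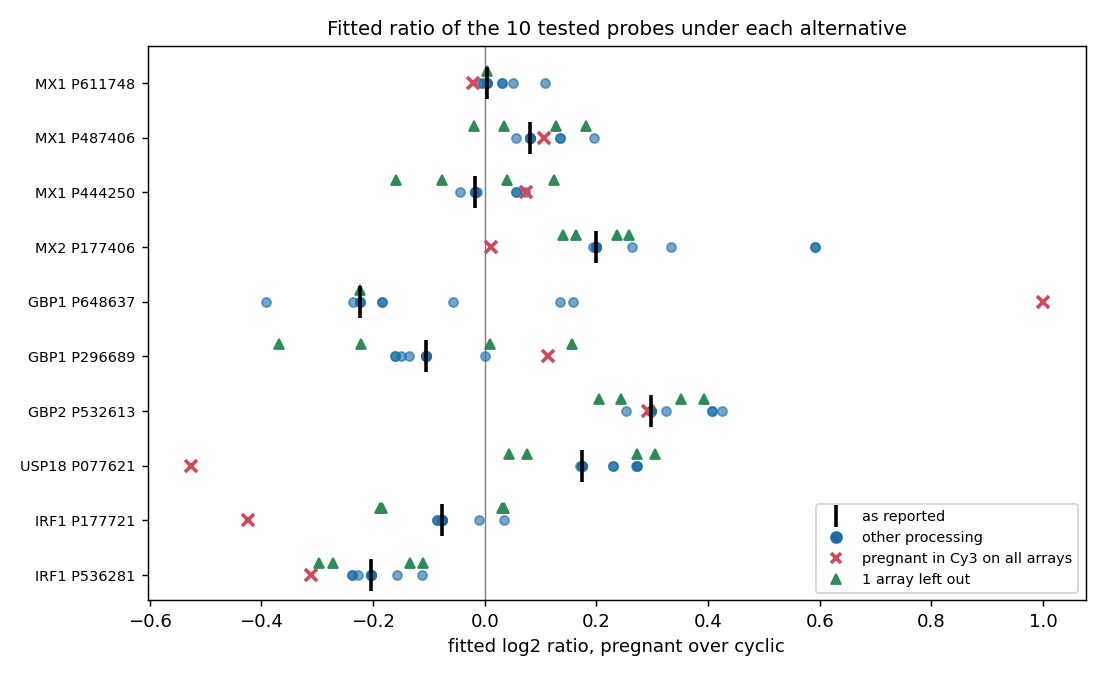
Fitted log2 ratio of pregnant over cyclic (horizontal axis) for the 10 tested member probes (rows) as reported (black bars), under the other ways of processing (circles), with pregnant RNA in Cy3 on all arrays (crosses) and with 1 array left out (triangles). GBP2 stays between 0.20 and 0.42, while a GBP1 probe moves from -0.22 as reported to 1.00 under the other dye reading and USP18 from 0.17 to -0.53.

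The named genes whose 4 log2 ratios were nearest to those of a member were looked up among 1652 genes measured on 4 arrays, by the root mean square difference over the 4 arrays. For MX1 (A_72_P487406) these were TPM2 at 0.034, PHGDH at 0.040 and GALNS at 0.048, where the median gene differed by 0.35. For IRF1 (A_72_P177721) they were COX6B at 0.13, SNCG at 0.13 and IRF9 at 0.17, where the median gene differed by 0.50. With 4 arrays such nearness is a description only. IRF9, which binds DNA in the complex formed after type I interferon, had ratios of -0.28, 0.29, -0.55 and 0.25, negative on arrays 1 and 3 like those of IRF1. Its fitted ratio was -0.075 beside a dye effect of 0.34. COX6B and SNCG, both nearer to IRF1, were likewise negative on arrays 1 and 3 and positive on arrays 2 and 4. Over all tested probes on 4 arrays, 14.1% were split by these pairs of arrays, in either direction.

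The rest of the interferon pathway was described from 5 lists of other genes, of which 56 genes had a probe and 43 were tested. Of the 43, 24 had a positive and 19 a negative ratio, with a median of 0.024. By limma 0 had an adjusted p under 0.05 and 6 an unadjusted p under 0.05, 4 higher and 2 lower in pregnant gilts. That is 13.95%, against 13.8% of the 1744 named genes tested. Of interferons themselves 5 genes had a probe, and only that of interferon gamma, IFNG, was tested, at a fitted ratio of 0.021 ± 0.10 (SD, n = 4). IFNG was above background in 4 pregnant and 2 cyclic gilts, so it entered the test through the pregnant group alone. Its mean level was 6.55 ± 0.25 in pregnant and 6.53 ± 0.24 in cyclic gilts (SD, n = 4 each), close to the limit of detection in both. IFNA1 and IFNB1 were not well above background in any gilt, and IFN-DELTA-1, a conceptus interferon of the pig, in 0 pregnant gilts and 1 cyclic gilt.

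Of 12 receptors and signal transducers tested 5 had positive and 7 negative ratios, with a median of -0.043. IFNAR1, a chain of the type I interferon receptor, was negative on the 4 arrays, with -0.31, -0.16, -0.18 and -0.069 and a fitted ratio of -0.18 ± 0.099 (SD, n = 4; limma adjusted p = 0.31). IFNGR2, a chain of the interferon gamma receptor, had 0.22 ± 0.59, the kinases JAK1 and TYK2 -0.13 ± 0.16 and -0.11 ± 0.099 (SD, n = 4 each). The 2 tested probes of JAK1 had fitted ratios of -0.46 and -0.13, and the 2 of TYK2 -0.17 and -0.11. None of the 12 genes, each by its brightest tested probe, was listed at an unadjusted p under 0.05 in limma, against 13.8% of all named genes tested.

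Sensors of nucleic acids and interferon regulatory factors had 4 positive and 6 negative ratios among 10 tested, with a median of -0.0055. MAVS, the mitochondrial adaptor of the RNA sensors, had -0.40, -0.25, -0.26 and -0.23 and a fitted ratio of -0.29 ± 0.078 (SD, n = 4; limma adjusted p = 0.235). It was negative on every array. TLR3, a sensor of double-stranded RNA, had 0.14 ± 0.27, the kinase TBK1 -0.11 ± 0.21 and the adaptor TMEM173 -0.056 ± 0.074 (SD, n = 4 each).

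Other interferon-induced genes had 8 positive and 4 negative ratios among 12 tested, with a median of 0.16. IFI30, a thiol reductase of antigen processing, had 0.55, 0.70, 0.44 and -0.049, a fitted ratio of 0.41 ± 0.32 (SD, n = 4; limma adjusted p = 0.258). The chemokine CCL5 had 0.32 ± 0.28 (SD, n = 4), with its 2 probes between -0.0073 and 0.32. SERPING1, an inhibitor of the complement pathway, had -0.058, -0.84 and -0.15 on arrays 2 to 4. Its fitted ratio was -0.47 ± 0.43 (SD, n = 3, limma adjusted p = 0.235) beside a dye effect of 0.37. Array 3 was alone in its dye orientation for this probe and weighed most. The 3 tested probes of SERPING1 had fitted ratios between -0.47 and -0.30. IFI30, CCL5 and SERPING1 were among the 4 genes of the list at an unadjusted p under 0.05 in limma. Of these 4 of 12 genes 3 were higher and 1 lower in pregnant gilts. The share over all named genes tested was 13.8%. CXCL10 and RSAD2, 2 strongly interferon-induced genes, were each above background in at most 3 gilts of either group and were not tested.

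Antigen presentation genes that interferon gamma induces had 6 positive and 2 negative ratios among 8 tested, with a median of 0.21. PSMB10, an immunoproteasome subunit, had 0.58, 0.30, 0.51 and 0.20, all positive, and a fitted ratio of 0.40 ± 0.18 (SD, n = 4; limma adjusted p = 0.235). PSMB8, another such subunit, had 0.47, 1.11, -0.41 and 0.56, with a fitted ratio of 0.43 ± 0.63 (SD, n = 4; limma adjusted p = 0.298). The proteasome activator genes PSME2 and PSME1 had 0.23 ± 0.21 and 0.20 ± 0.16 (SD, n = 3 each), with the 2 probes of PSME1 at 0.0032 and 0.20. Without array 1, PSMB10, PML and SERPING1 had a limma adjusted p under 0.05, of 0.0468, 0.0211 and 0.0293. That fit called 15.5% of all tested probes. SERPING1 had no array 1 value in the reported fit either, so its ratio stayed at -0.47 and only the test changed. A separate-channel fit called PSMB10 and MAVS, at limma adjusted p of 0.0463 and 0.0469, with 5.26% of all tested probes called.

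**Figure D4:**
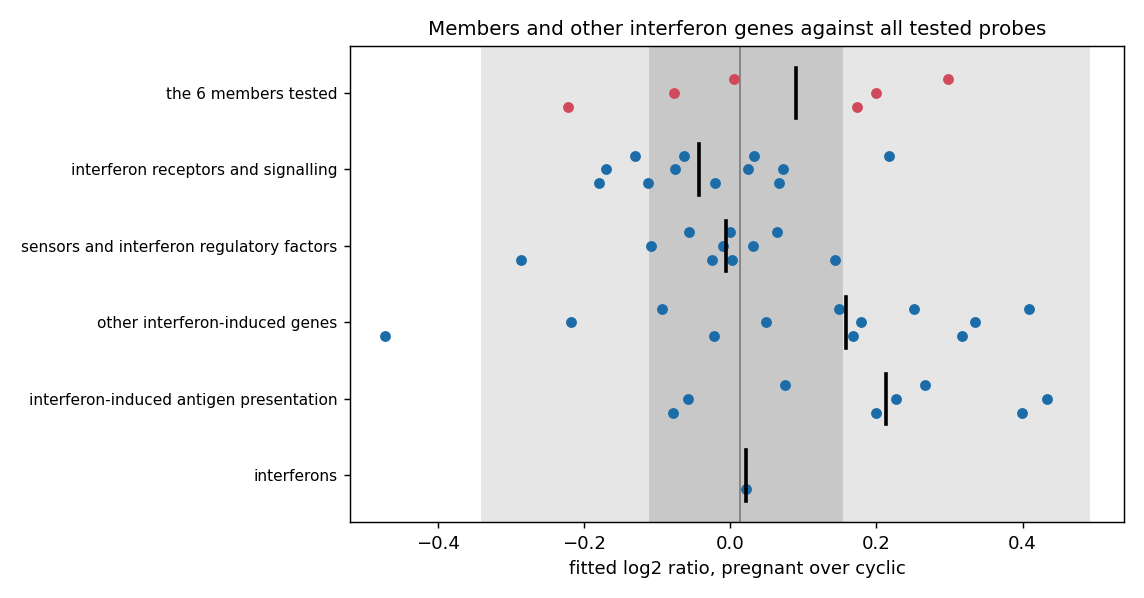
Fitted log2 ratio of pregnant over cyclic (horizontal axis) of the 6 tested members and of the tested genes in 5 lists of other interferon genes (points, 1 per gene, spread vertically for legibility), with the median of each row as a black bar; dark and light shading hold the middle 50% and 90% of all tested probes. The medians lie between -0.043, for receptors and signalling, and 0.21, for antigen presentation, and all but 1 point lie inside the light shading.

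Markers of other cells that could carry interferon-induced transcripts were set beside these values. Over 4 lists (macrophages, lymphocytes, endothelium, and posterior and intermediate lobe) 14 genes were tested, of which 7 had positive and 7 negative ratios, and limma called 0 at an adjusted p under 0.05 and 1 at an unadjusted p under 0.05. The unadjusted share over all named genes tested was 13.8%. That 1 gene was ENG of the endothelium, at -0.35 ± 0.35 (SD, n = 4; limma adjusted p = 0.235), negative on 4 arrays. Of 4 endothelial genes tested, 2 had positive and 2 negative ratios. The summed level of the macrophage markers measured on 4 arrays (AIF1, CD14 and CD86, the same probes in both groups, with AIF1 in the dim area of array 4) was 9.46 to 10.23 in pregnant gilts, against 9.29 to 10.08 in cyclic gilts. CD163, the other macrophage marker tested, had -0.20 ± 0.23 (SD, n = 3; limma adjusted p = 0.385), negative on each of its 3 arrays. Of the T cell markers, CD3D and CD4 were not well above background in any gilt, CD2 was above background in 2 pregnant gilts and 1 cyclic gilt, CD3E in 3 pregnant and 3 cyclic gilts, and CD8A, which was tested, in 4 pregnant and 4 cyclic gilts. The fitted ratio of CD8A was 0.043 ± 0.19 (SD, n = 4; limma adjusted p = 0.83). CD79A, the other lymphocyte marker tested, had -0.26 ± 0.21 (SD, n = 4; limma adjusted p = 0.28), negative on 3 of 4 arrays. The part of these cells in the values above was not tested.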

How the data were processed

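The deposited scanner files hold spot intensity for Cy3 and Cy5, written by Feature Extraction 10.7.3.1 per the file headers. They also hold log10 ratios of Cy5 over Cy3, and a deposited table holds log2 ratios whose sign follows the dyes of the sample labels; per the file headers both are processed by the scan software. Median signals were background-corrected (normexp, offset 50) and loess-normalised within arrays in limma 3.58.1 (R 4.3.3). Flagged spots were left out after normalisation, and spots of a probe were averaged. Ratios were turned to pregnant over cyclic and fitted with a dye effect, with Benjamini-Hochberg adjustment over 21627 tested probes. Levels are log2 intensities after loess and Aquantile, comparable within a probe only. The brightest tested probe represents a gene. In simulations the fit called 1.2% of 1.5-fold, 54% of 2-fold, 92% of 4-fold and 98.8% of 8-fold changes. The simulated noise of a probe was independent and of equal spread on every array. Of the unchanged simulated probes, 4.93% had a limma unadjusted p under 0.05. In the data ratios were wider on array 3 and 18.1% of probes had such a p, so these shares may not carry over. Most changes of 1.5-fold were missed in the simulations, and a lack of calls does not exclude changes of that size. The number of arrays, 4, limits the precision. Genes were named through RefSeq accessions (Sscrofa11.1 names); the files name no genome build. Genes named are the members, up to 4 genes of each pathway list with the smallest p, and the 3 nearest to each of 2 members; PML, CXCL10, RSAD2 and the undetected interferons were named after their values were seen. Members and lists were chosen with earlier results of these data known. Other backgrounds, normalisations, filters, dye readings and left-out arrays were tried. Some genes of the lists are not reported here by name.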

Additional observations from a re-analysis of the deposited data

Results flagged for a closer look

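Among 24 sets of 4 values examined for the members, 2 held a gilt set apart from the other 3 of its group by more than Dixon's 95% critical value for the gap; chance alone gives about 1 in 20. The MX2 level (A_72_P177406) was 7.51 in the pregnant gilt of array 4, against 7.03 to 7.09 in the other pregnant gilts. The GBP2 level (A_72_P532613) was 9.79 in the pregnant gilt of array 4, against 9.02 to 9.08 in the other pregnant gilts. The cyclic gilt of array 4 was also the highest of its group with both probes, at 7.24 for MX2 and 9.89 for GBP2. Array 4 is the array with the dim area, and neither spot lies in it.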

How the results depend on the processing

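No member probe had a limma adjusted p under 0.05 under any of the 16 alternatives (lowest 0.053, GBP2 without array 1). Of 152 ratios compared 131 kept their sign and 21 did not, and the cause was not tested. For probes on 4 arrays outside the dim area, several alternatives change only the error and leave the ratio as it was. MX2, for example, had 0.20 without a dye effect, with other filters and in the separate-channel fit. The processed signals and the deposited table also gave nearly the same ratios. The 131 thus include ratios that could not change sign, and do not measure how stable the signs are. The fit is itself paired, since each ratio sets 1 pregnant against 1 cyclic gilt on its array. Over all tested probes, the count at a limma adjusted p under 0.05, 0 as reported, was 2 without a dye effect, 1 without background correction, 1 with processed signals, 1 with the deposited table and 1046 in a separate-channel fit. Leaving out 1 array gave 0 to 3381, with 3381 without array 1 and 4 without array 3. At an unadjusted p under 0.05 the count was 2555 with median centring and 1118 with pregnant RNA read as Cy3 throughout, against 3904 as reported. Leaving out 1 array gave 895 (array 2) to 7061 (array 1), and 2026 without array 4. For member probes the unadjusted count of 1 of 10 became 0 of 10 without a dye effect, with processed signals or with the deposited table. There 14.3%, 17.0% and 17.0% of all tested probes were listed. It became 2 of 10 without background correction (18.9% of all), 2 of 8 in the separate-channel fit (27.3%) and 2 of 13 without the dim area (17.0%). With Cy3 throughout it was 3 of 11 (5.01% of all), and without a filter on dim probes 4 of 14 (14.1%). Leaving out 1 array gave 3 of 8 without array 1 (32.3% of all) and 0 of 9 without array 2 (4.41%). It gave 0 of 8 without array 3 (17.6%) and 1 of 12 without array 4 (8.43%). Pathway genes at an adjusted p under 0.05 numbered 2 in the separate-channel fit, where 5.26% of all tested probes were called. With 1 array left out they numbered 0 to 3, with 3 without array 1 (15.5% of all). At an unadjusted p under 0.05, 6 of 43 (18.1% of all tested probes) became 3 with processed signals or the deposited table (17.0% of all with each). Leaving out 1 array gave 1 without array 2 (4.41% of all) to 9 without array 1 (32.3%).

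MX1 A_72_P611748 had -0.0025 without a dye effect, -0.0083 with scaling between arrays and -0.020 with Cy3 throughout. MX1 A_72_P444250 had 0.056 with processed signals and with the deposited table, 0.073 with median centring, 0.074 with Cy3 throughout and -0.16 to 0.12 with 1 array left out. MX1 A_72_P487406 had -0.019 to 0.18 with 1 array left out. GBP1 A_72_P648637 had 0.14 without a dye effect, 0.16 with flagged spots and 1.00 with Cy3 throughout. GBP1 A_72_P296689 had 0.0011 with median centring, 0.11 with Cy3 throughout and -0.37 to 0.16 with 1 array left out. USP18 A_72_P077621 had -0.53 with Cy3 throughout and 0.043 to 0.30 with 1 array left out. IRF1 A_72_P177721 had 0.035 with median centring and -0.19 to 0.035 with 1 array left out.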
